A study of Mus musculus with 8 samples.

Results

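The genes described here are 10 mouse genes of the ATM and DNA-PK branch of the response to DNA double-strand breaks: the kinases Atm, Prkdc and Chek2, the mediators Mdc1 and Trp53bp1, and the break-end sensors Mre11a, Rad50, Nbn, Xrcc5 and Xrcc6. They were chosen by symbol for their known roles, at a time when earlier results of these data were known. Each was found once among the 56953 gene identifiers of the count table, and all 10 passed the filter on low counts in every comparison. The cells are CT26, a mouse colorectal carcinoma line, and RNA was sequenced in 4 groups of 2 libraries. The groups were transplanted CT26 tumours treated with mLJZD, a drug whose name the labels leave unexpanded, transplanted CT26 tumours treated with normal saline, CT26 cultures given 10% serum containing mLJZD for 48 hours, and CT26 cultures given 10% control serum for 48 hours. The labels give neither the strain nor the age of the mice. They also do not say if both libraries of a group come from separate tumours or dishes, so the p-values reflect only library-to-library spread, part of which may be technical.

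A double-strand break is first bound at its ends. The complex of MRE11, RAD50 and NBN recruits and activates ATM, while the Ku heterodimer, encoded by Xrcc5 and Xrcc6, recruits the catalytic subunit of DNA-PK, encoded by Prkdc, and starts non-homologous end joining. ATM phosphorylates the histone H2AX, MDC1 binds the phosphorylated histone and spreads the signal, and 53BP1, the product of Trp53bp1, is then held on the flanking chromatin, where it restrains end resection. CHK2, encoded by Chek2, is activated by ATM and carries the signal to p53. Much of this signalling works through protein modification, which RNA counts do not measure.

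Library totals ran from 16594912 to 29363861 counts, and the 10 genes held between 0.0405% and 0.0673% of them, with 241 to 3356 counts per gene and library. Of 9 markers of colorectal epithelium fixed for this purpose, Epcam and Cdx1 were at 0 counts in all 4 cultures, where 3 counts, the limit that a count of 0 allows for counting error, are 0.102 to 0.147 CPM. Cdx2 was at 0 in all 4 tumours, and Krt20 made up most of the summed level of 183 CPM (counts scaled to the library total) in both mLJZD tumours, 294 to 299 CPM in saline tumours, 238 to 240 CPM in mLJZD cultures and 174 to 187 CPM in control cultures. The tumours also held RNA of host cells: 8 skeletal muscle markers summed to 447 to 455 CPM in mLJZD tumours and 2617 to 2655 CPM in saline tumours, against at most 2.65 CPM in a culture. The control cultures stood apart from the other libraries in the length of the transcripts they counted. Protein-coding genes whose longest annotated transcript exceeds 8000 bases held 7.42% and 7.51% of protein-coding counts in mLJZD cultures, 3.71% and 3.94% in control cultures, 6.86% and 7.28% in mLJZD tumours, and 7.67% and 7.72% in saline tumours.

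The genes differed widely in length. The longest annotated transcript measured 12647 bases for Prkdc, 9819 for Atm, 9621 for Trp53bp1, 7335 for Mdc1, 5660 for Mre11a, 5153 for Rad50, 3296 for Xrcc6, 2555 for Xrcc5, 2533 for Nbn and 2276 for Chek2. The kinases of the ATM family and the mediators are thus the long members, and the Ku genes, Nbn and Chek2 the short ones. Each comparison was therefore also fitted after removing from every library the smooth trend of log counts in transcript length and GC content, and values from that fit are named as trend-removed.

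Levels of different genes were compared per kilobase of the longest annotated transcript. This scale does not remove the length trend, nor does it show which transcript was counted. Xrcc6 was the highest of the 10 genes in saline tumours (18.9 CPM per kilobase), mLJZD cultures (33.1) and control cultures (33.0). In mLJZD tumours Nbn (14.3) stood just above Xrcc6 (14.1). Prkdc was the lowest in all 4 groups, at 1.72 CPM per kilobase in mLJZD tumours, 2.16 in saline tumours, 2.96 in mLJZD cultures and 1.28 in control cultures. DNA-PK needs Ku and its catalytic subunit together, and the ratio of Prkdc to Xrcc6 per kilobase was 0.113 and 0.133 in mLJZD tumours, 0.119 and 0.110 in saline tumours, 0.0839 and 0.0954 in mLJZD cultures, and 0.0379 and 0.0397 in control cultures. Control cultures also had the lowest share of counts from long transcripts, and Prkdc is the longest of the 10 genes. The part of transcript length in the ratio was not tested. Between the culture groups Prkdc passed as tested (log2 fold change 1.15) but not trend-removed (-0.09), and Xrcc6 passed in neither fit (-0.05 and 0.02). The ratio of Xrcc5 to Xrcc6, whose proteins work as a heterodimer, ran from 0.588 to 0.964 over the 8 libraries and was below 1 in each.

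Across the 4 groups the genes fell into different orders of level. Atm, Prkdc and Rad50 shared the order mLJZD cultures, saline tumours, mLJZD tumours, control cultures from high to low, with no overlap between neighbouring groups. Mre11a, Chek2, Xrcc5 and Xrcc6 were higher in both culture groups than in either tumour group, and for Xrcc6 the libraries of the mLJZD and control cultures overlapped. Mdc1 and Trp53bp1 were highest in saline tumours, and Mdc1 overlapped between mLJZD tumours and mLJZD cultures. Nbn was highest in mLJZD tumours, where it overlapped mLJZD cultures. Control cultures were the lowest group for Atm, Prkdc, Mdc1, Trp53bp1, Rad50 and Nbn.

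**Figure D1:**
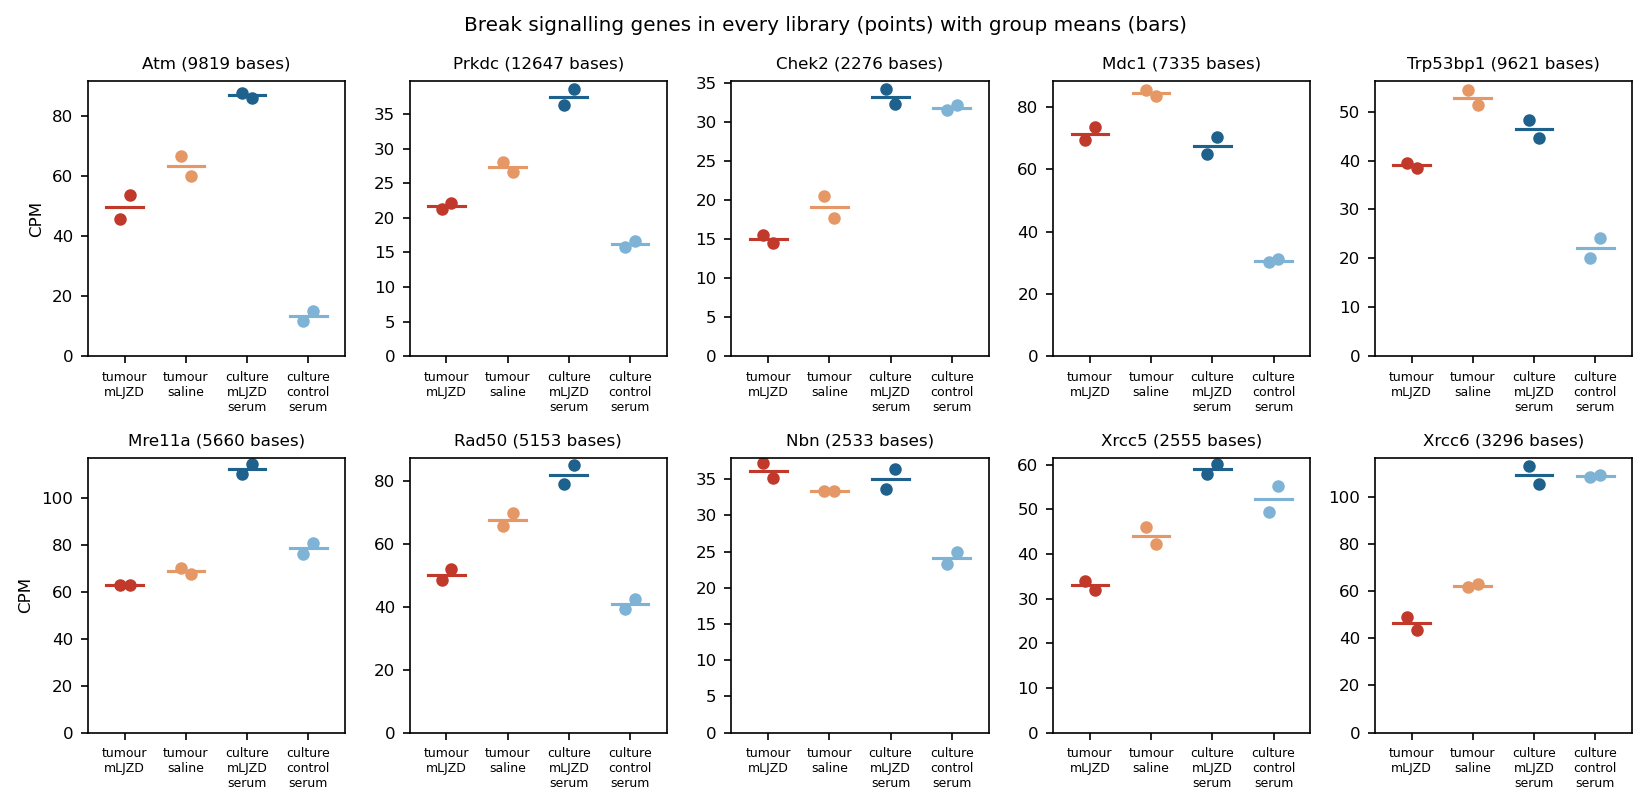
CPM of the 10 genes (vertical axis, from 0) in the 8 libraries, by group; points are libraries, bars are means of 2, and panel titles give the longest transcript. Atm is at 87.6 and 86.0 CPM in mLJZD cultures and at 11.7 and 15.2 CPM in control cultures, while Xrcc6 overlaps between them.

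In tumours, 8 of the 10 genes fell with mLJZD and 0 rose (edgeR quasi-likelihood test, adjusted p under 0.05). Over all 15417 genes tested, 31.4% were called, 16.0% lower and 15.4% higher. The changes were small, with log2 fold changes of the 8 genes between -0.21 and -0.40, and the median of the 10 was -0.32 against 0.00092 for all genes tested. The 2 genes that did not pass were Mre11a and Nbn, both of the MRE11 complex. For all 10 genes the mLJZD and saline libraries did not overlap in CPM, which also held for 64.5% of all genes tested. In bulk tumour RNA, fewer cells of a type and less RNA per cell cannot be told apart.

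Both Ku genes fell in mLJZD tumours. Xrcc6 (ENSMUSG00000022471, chromosome 15) had 49.1 and 43.5 CPM in mLJZD tumours, against 61.6 and 62.9 CPM in saline tumours. Xrcc5 (ENSMUSG00000026187, chromosome 1) had 33.9 and 32.1 CPM in mLJZD tumours, against 46.1 and 42.2 CPM in saline tumours. Every mLJZD library lay below every saline library, with a log2 fold change of -0.39 for Xrcc6 (SE 0.07, adjusted p = 0.000195) and -0.39 for Xrcc5 (SE 0.07, adjusted p = 0.000636).

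The MRE11 complex did not move as a unit. Rad50 (ENSMUSG00000020380, chromosome 11), the coiled-coil ATPase that tethers DNA ends, fell to 48.4 and 51.9 CPM in mLJZD tumours, against 65.6 and 69.7 CPM in saline tumours, with a log2 fold change of -0.40 (SE 0.06, adjusted p = 5.63e-05). Mre11a (ENSMUSG00000031928, chromosome 9), the nuclease, had 62.8 and 62.9 CPM in mLJZD tumours and 70.2 and 67.6 CPM in saline tumours, a log2 fold change of -0.10 (SE 0.05) that did not pass (adjusted p = 0.166). Nbn (ENSMUSG00000028224, chromosome 4), the subunit that binds ATM, had 37.2 and 35.1 CPM in mLJZD tumours and 33.4 and 33.3 CPM in saline tumours, a log2 fold change of 0.15 (SE 0.07) that did not pass either (adjusted p = 0.146). Per kilobase, the ratio of Nbn to Rad50 was 1.56 and 1.38 in mLJZD tumours, against 1.04 and 0.974 in saline tumours.

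Among the kinases, Atm (ENSMUSG00000034218, chromosome 9) had 45.7 and 53.5 CPM in mLJZD tumours, against 66.6 and 59.9 CPM in saline tumours. Both mLJZD libraries were below the saline libraries, and the fall was -0.32 on the log2 scale (SE 0.07, adjusted p = 0.00215). Prkdc (ENSMUSG00000022672, chromosome 16) fell to 21.3 and 22.2 CPM in mLJZD tumours, against 28.0 and 26.6 CPM in saline tumours (log2 fold change -0.30, SE 0.09, adjusted p = 0.0198). Chek2 (ENSMUSG00000029521, chromosome 5), the least abundant of the 10 in tumours by CPM, had 15.5 and 14.5 CPM in mLJZD tumours, against 20.5 and 17.7 CPM in saline tumours. Its fall of -0.31 on the log2 scale (SE 0.11) lay just under the threshold (adjusted p = 0.0465).

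Both mediators fell in mLJZD tumours as well. Trp53bp1 (ENSMUSG00000043909, chromosome 2) had 39.6 and 38.6 CPM in mLJZD tumours, against 54.4 and 51.3 CPM in saline tumours, with Rad50 the largest fall of the 10 genes (log2 fold change -0.40, SE 0.06, adjusted p = 0.000121). Mdc1 (ENSMUSG00000061607, chromosome 17) had 69.4 and 73.5 CPM in mLJZD tumours, against 85.5 and 83.7 CPM in saline tumours, a smaller fall (log2 fold change -0.21, SE 0.05, adjusted p = 0.00361).

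No alternative turned the direction of the 8 tumour changes, but their calls depended on single libraries. Without mLJZD replicate 1, Xrcc6 alone passed, with 6.75% of all genes called; without mLJZD replicate 2, Rad50 alone passed, with 12.3% of all genes called. In each of these fits the lone mLJZD library is assumed to vary like the other group. Without saline replicate 1, and by DESeq2, the same 5 genes passed (Atm, Trp53bp1, Rad50, Xrcc5 and Xrcc6), with 22.1% and 10.9% of all genes called. The DESeq2 share is over 26539 genes, because that fit had no filter on low counts, against 15417 genes as tested. In tumours the share of protein-coding genes called lower rose with transcript length. It was 10% under 1000 bases, 14.2% for 1000 to 2000, 16.3% for 2000 to 4000, 21.3% for 4000 to 8000 and 29.0% over 8000. The last class holds Atm, Prkdc and Trp53bp1. In the trend-removed fit 7 of the 10 genes fell, where 32.8% of all genes were called and 16.0% were lower. Prkdc no longer passed there (log2 fold change -0.22, edgeR adjusted p = 0.0673).

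Markers of other cells and of cycling cells moved in the same tumours. All 8 skeletal muscle markers fell with mLJZD, to the summed levels given above. Other lists were higher or lower. The 7 B and plasma cell markers summed to 323 to 358 CPM in mLJZD tumours and 26.7 to 27.7 CPM in saline tumours, 8 neutrophil markers to 32.8 to 33.3 CPM against 18.3 to 18.7 CPM, and 7 macrophage markers to 1030 to 1076 CPM against 1238 to 1249 CPM. In the same order of groups, 6 fibroblast markers summed to 3551 to 3636 CPM against 3194 to 3210 CPM, 6 T cell markers to 46.3 to 51.8 CPM against 57.4 to 60.4 CPM, 5 erythroid markers to 43.7 to 47.0 CPM against 18.2 to 22.2 CPM, and 5 endothelial markers to 207 to 214 CPM against 209 CPM in both. The fibroblast markers also summed to 1845.9 to 2180.5 CPM in mLJZD cultures and 1848.5 to 1984.5 CPM in control cultures. That list therefore does not mark host cells alone. Of the 9 markers of colorectal epithelium, 4 could be tested in tumours, and 3 fell. These were Krt8 (log2 fold change -3.11), Krt18 (-2.95) and Krt20 (-0.61), each falling by more than any of the 10 genes. Cdh1 went the other way but did not pass (0.52, edgeR adjusted p = 0.0868). Krt8 was near the limit in mLJZD tumours, at 0.273 and 0.362 CPM, where 3 counts are 0.164 and 0.181 CPM. By the test, 4 of 6 B and plasma cell, 5 of 6 neutrophil, 3 of 6 fibroblast and 5 of 5 erythroid markers rose. Of the macrophage markers 1 of 7 rose and 3 fell, 1 of 6 T cell markers fell, and 0 of 5 endothelial markers passed. Beside the marker counts and those of the proliferation genes stand shares over all genes tested of 15.4% higher and 16.0% lower. Mpo, Elane and Ly6g, of the neutrophil list, were at 0 in both saline tumours. Of 7 proliferation genes, 6 fell with mLJZD, among them Mcm2, a replicative helicase subunit (log2 fold change -0.56, adjusted p = 5.02e-07), and Mki67, the Ki-67 antigen (-0.38, adjusted p = 3.44e-06). The part of these shifts in the fall of the break signalling genes was not tested.

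In cultures most of the 10 genes were higher. With mLJZD serum, 7 of the 10 genes rose and 0 fell (edgeR, adjusted p under 0.05), where 55.4% of 13299 genes tested were called, 28.8% higher and 26.6% lower. The median log2 fold change of the 10 was 0.71 against -0.01 for all genes tested. The libraries of the 2 groups did not overlap in CPM for 9 of the 10 genes, against 77.4% of all genes tested. The genes that rose included the 6 longest, and of the 4 shortest only Nbn rose.

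Atm rose most. It had 87.6 and 86.0 CPM in mLJZD cultures, against 11.7 and 15.2 CPM in control cultures. The control cultures were by far the lowest of the 8 libraries for this gene, while mLJZD cultures were the highest. The change was 6.22-fold, a log2 fold change of 2.64 (SE 0.11, adjusted p = 1.43e-09).

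The other kinases parted. Prkdc rose 2.23-fold, with 36.4 and 38.6 CPM in mLJZD cultures, against 15.8 and 16.6 CPM in control cultures (log2 fold change 1.15, SE 0.11, adjusted p = 8.35e-07). Chek2 had 34.2 and 32.3 CPM in mLJZD cultures and 31.5 and 32.1 CPM in control cultures, a log2 fold change of 0.01 (SE 0.10) that did not pass (adjusted p = 0.97). Folds carry TMM scaling between libraries and can therefore differ slightly from ratios of CPM.

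Both mediators and all 3 genes of the MRE11 complex rose. Mdc1 had 65.0 and 70.3 CPM in mLJZD cultures, against 30.1 and 31.3 CPM in control cultures (log2 fold change 1.08, SE 0.09, adjusted p = 2.21e-07). Trp53bp1 had 48.3 and 44.5 CPM in mLJZD cultures, against 20.1 and 24.2 CPM in control cultures (1.01, SE 0.11, adjusted p = 2.78e-06). Both lay near 2-fold, with no overlap between the groups. Rad50 rose to 78.9 and 85.0 CPM in mLJZD cultures, against 39.4 and 42.4 CPM in control cultures (0.95, SE 0.08, adjusted p = 4.95e-07). Mre11a and Nbn rose less: Mre11a had 110 and 114 CPM in mLJZD cultures, against 76.0 and 80.9 CPM in control cultures (0.46, SE 0.08, adjusted p = 0.00015). Nbn had 33.6 and 36.3 CPM in mLJZD cultures, against 23.3 and 25.0 CPM in control cultures (0.48, SE 0.10, adjusted p = 0.00131). The ratio of Mre11a to Rad50 per kilobase was 1.27 and 1.22 in mLJZD cultures, against 1.75 and 1.74 in control cultures, whereas the ratio of Mre11a to Nbn was 1.47 and 1.41 in mLJZD cultures, against 1.46 and 1.45 in control cultures.

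The Ku genes did not pass in cultures. Xrcc5 had 57.9 and 60.1 CPM in mLJZD cultures and 49.3 and 55.3 CPM in control cultures (log2 fold change 0.12, SE 0.09, adjusted p = 0.268). Xrcc6 had 113 and 105 CPM in mLJZD cultures and 108 and 109 CPM in control cultures (-0.05, SE 0.08, adjusted p = 0.59).

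Of the 7 proliferation genes, 3 rose with mLJZD serum, Mki67 (log2 fold change 1.31), Top2a (0.79) and Mcm2 (0.30). Another 2 fell, Cdk1 (-0.57) and Pcna (-0.35). Over all genes tested, 28.8% were called higher and 26.6% lower, and nothing particular to these 7 genes is read from the counts. The part of the proliferation genes in the culture changes was not tested.

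**Figure D2:**
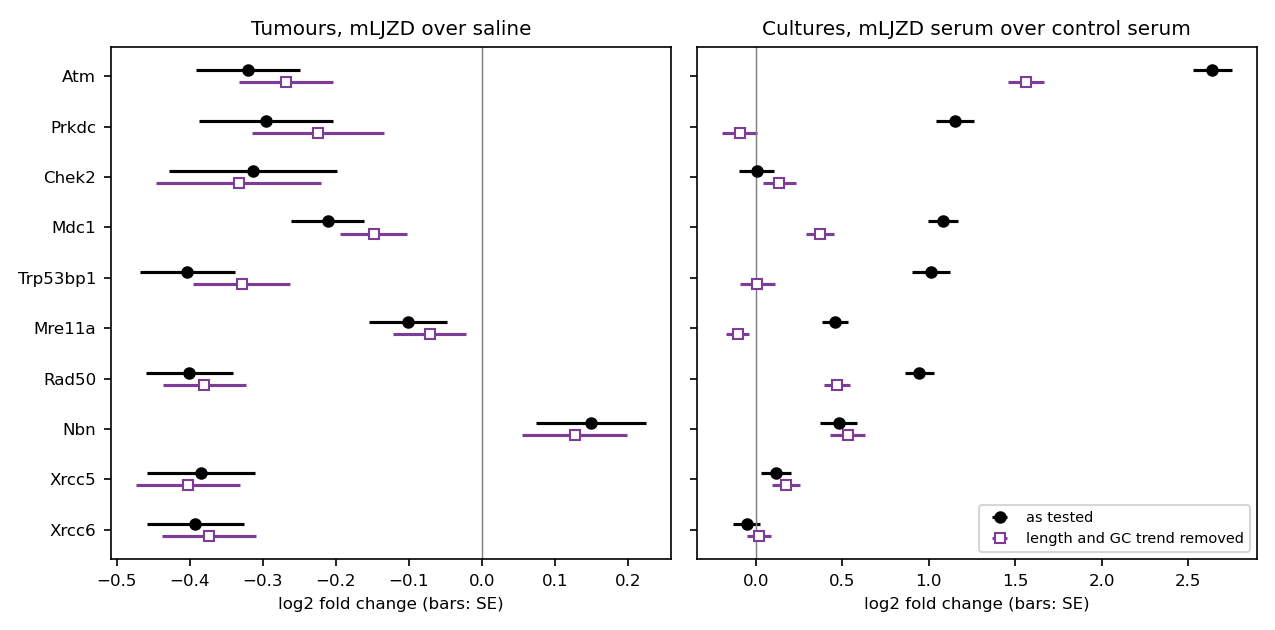
log2 fold change of the 10 genes (horizontal axis, bars are SE), mLJZD over saline in tumours on the left and mLJZD serum over control serum in cultures on the right; filled circles are as tested, open squares are trend-removed. In tumours Prkdc is at -0.30 as tested and -0.22 trend-removed. In cultures Prkdc is at 1.15 as tested and -0.09 trend-removed, and Atm is at 2.64 and 1.56.

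These culture changes followed transcript length. Over all protein-coding genes tested, the median log2 fold change in cultures was -0.76 for transcripts under 1000 bases, -0.48 for 1000 to 2000, -0.08 for 2000 to 4000, 0.41 for 4000 to 8000 and 1.00 for those over 8000. In tumours the same classes ran only from 0.09 to -0.08. In the longest class, 82.9% of the 632 genes were called higher in mLJZD cultures, so a rise of Prkdc or Trp53bp1 was shared by most genes of their length. Trp53bp1, at 1.01, stood at the median of its class, with 310 of 632 genes above it, and Prkdc had 246 above it. Atm was different, with 3 of 632 genes above it. In the class of 4000 to 8000 bases, 58.2% of 3677 genes were called higher; Mdc1 had 270 genes above it, Rad50 464 and Mre11a 1680. In the class of 2000 to 4000 bases, 17.4% of 4627 genes were called higher; Nbn had 419 genes above it, Xrcc5 1400, Chek2 1899 and Xrcc6 2147.

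**Figure D3:**
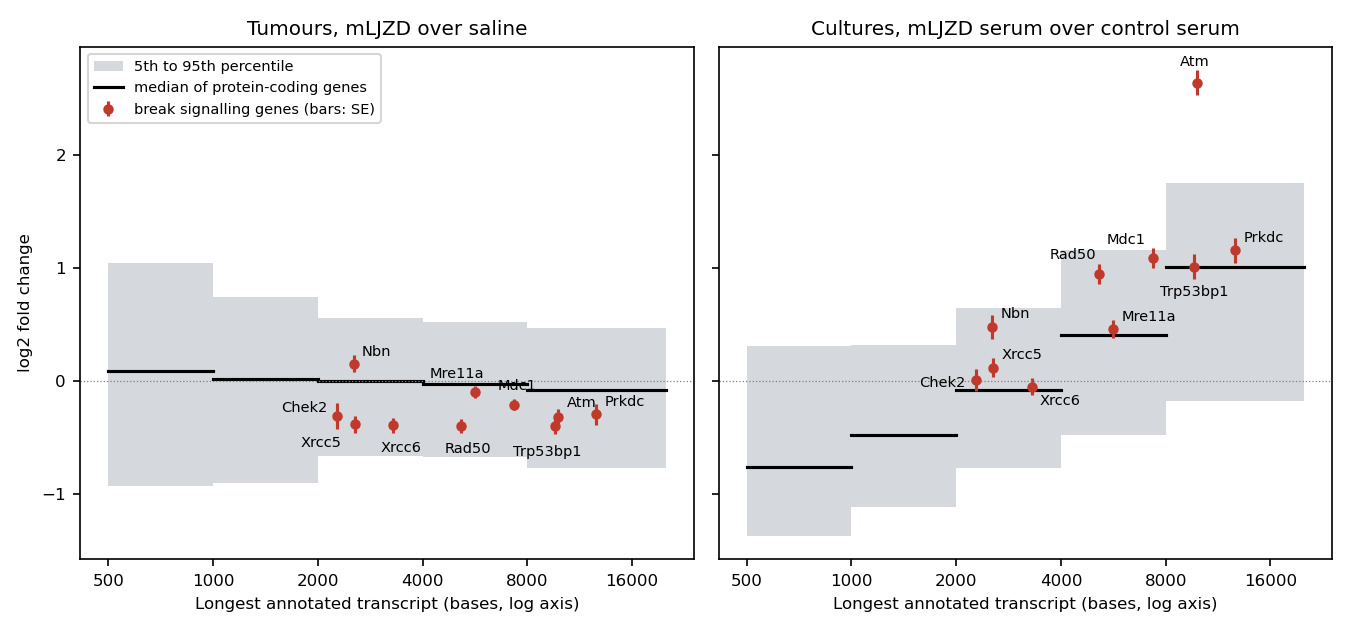
log2 fold change (vertical axis) against the longest annotated transcript in bases (log axis), for tumours on the left and cultures on the right; black lines are medians and grey bands the 5th to 95th percentile of protein-coding genes in 5 length classes, and red points are the 10 genes with SE. In cultures the class medians run from -0.76 to 1.00 and Atm lies above the band of its class, while Prkdc, Trp53bp1 and Mre11a lie near the medians of theirs.

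In the trend-removed fit of the cultures, 36.8% of all genes were called, 20.5% higher, and 4 of the 10 genes rose. Atm remained, 2.96-fold higher in mLJZD cultures (log2 fold change 1.56, SE 0.10, adjusted p = 3.1e-07), again with 3 of the 632 longest genes above it. Nbn (0.53, adjusted p = 0.00101), Rad50 (0.47, adjusted p = 0.000312) and Mdc1 (0.37, adjusted p = 0.00307) also remained. The calls of Prkdc (-0.09, adjusted p = 0.518), Trp53bp1 (0.01, adjusted p = 0.96) and Mre11a (-0.10, adjusted p = 0.26) were lost. Chek2 (0.14), Xrcc5 (0.17) and Xrcc6 (0.02) again did not pass. The length trend moved with the serum groups, so its part in these changes cannot be told apart from that of the serum.

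The treatment effect was compared directly between tumours and cultures as an interaction over all 8 libraries. Of 16090 genes tested, 44.4% were called, 23.8% higher and 20.5% lower in tumours relative to cultures, and 7 of the 10 genes were called, all lower. The difference was -2.87 for Atm (SE 0.14, adjusted p = 4.37e-10), -1.37 for Prkdc, -1.33 for Trp53bp1, -1.26 for Rad50, -1.21 for Mdc1, -0.48 for Mre11a and -0.42 for Xrcc5 (adjusted p = 0.00507). It did not pass for Xrcc6 (-0.26, adjusted p = 0.0655), Nbn (-0.25, adjusted p = 0.113) and Chek2 (-0.23, adjusted p = 0.21). In the trend-removed fit, where 32.1% of all genes were called and 15.5% lower, Atm (-1.82, adjusted p = 9.92e-08), Rad50 (-0.81), Xrcc5 (-0.55) and Mdc1 (-0.49) remained lower. Chek2 (-0.45), Nbn (-0.38) and Xrcc6 (-0.37) passed there as well, while Prkdc (-0.14), Trp53bp1 (-0.31, adjusted p = 0.0567) and Mre11a (0.07) did not. Scaling by library totals alone moved the median difference of all genes by -0.16 and the share of calls that were higher to 39.7%, against 53.7% with TMM. With library totals 43.5% of all genes were called in either direction, and all 10 genes were called lower.

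Saline tumours were set against control cultures to describe the genes without mLJZD. These libraries are the same as in the comparisons above, and the growth in an animal, the host cells and the serum differ together. All 10 genes were called, 6 higher and 4 lower in saline tumours, where 80.6% of 15332 genes tested were called, 44.9% higher and 35.7% lower; the groups did not overlap in CPM for all 10, as for 89.5% of all genes tested. Higher in saline tumours were Atm (4.22-fold, log2 fold change 2.08, SE 0.11), Mdc1 (1.30, SE 0.06), Trp53bp1 (1.10, SE 0.09), Prkdc (0.59, SE 0.10), Rad50 (0.56, SE 0.07) and Nbn (0.31, SE 0.09). Lower were Xrcc6 (-0.97, SE 0.05), Chek2 (-0.90, SE 0.10), Xrcc5 (-0.41, SE 0.08) and Mre11a (-0.35, SE 0.06). Here too the 3 longest genes were on the higher side, and the class medians of protein-coding genes ran from -0.61 under 1000 bases to 1.23 over 8000. In the trend-removed fit 77.4% of all genes were called, 42.6% higher and 34.7% lower, and 8 of the 10 genes passed. Atm (0.90, adjusted p = 1.17e-05), Mdc1 (0.50) and Nbn (0.47) were then higher, Mre11a (-0.92), Xrcc6 (-0.86), Chek2 (-0.65) and Xrcc5 (-0.24) lower, and Prkdc turned to lower (-0.73, adjusted p = 3.55e-05), while Trp53bp1 (0.01) and Rad50 (0.10) did not pass.

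Several of the genes start next to another gene on the opposite strand. In GENCODE M21, 4 of the 10 have such a head-to-head neighbour within 1000 bases: Atm with Npat, a regulator of histone gene transcription, Prkdc with Mcm4, a subunit of the replicative helicase, Chek2 with Hscb, a cochaperone of iron-sulfur cluster assembly, and Mre11a with Ankrd49. The starts lie 307 bases apart for Atm and Npat, 466 for Prkdc and Mcm4 and 202 for Chek2 and Hscb, while Mre11a and Ankrd49 overlap by 202 bases, so that their reads cannot be told apart there without strand.

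Upstream sequence is shown for Atm, whose window is shared with Npat, and for the Ku genes, which were called together in tumours. RefSeq promoters (build GRCm38.p6) were found for 7 of the 10 genes, and not for Prkdc, Rad50 and Nbn. Printed are the 250 bases before the start, 5′ to 3′ on the strand of the gene: chr9:53536672-53536921 on the minus strand for Atm, chr1:72307171-72307420 on the plus strand for Xrcc5 and chr15:82016119-82016368 on the plus strand for Xrcc6. Capitals mark matches on either strand to the CCAAT box (CCAAT), the GC box (GGGCGG) and the E2F core (TTCCCGC), which 33.8%, 32.7% and 3.82% of 32851 promoter windows of that length hold.
Atm: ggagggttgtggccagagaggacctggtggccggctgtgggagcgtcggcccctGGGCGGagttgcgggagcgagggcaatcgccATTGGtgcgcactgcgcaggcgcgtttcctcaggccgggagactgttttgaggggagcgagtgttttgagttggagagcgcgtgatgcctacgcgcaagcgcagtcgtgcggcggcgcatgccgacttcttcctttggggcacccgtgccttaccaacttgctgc
Xrcc5: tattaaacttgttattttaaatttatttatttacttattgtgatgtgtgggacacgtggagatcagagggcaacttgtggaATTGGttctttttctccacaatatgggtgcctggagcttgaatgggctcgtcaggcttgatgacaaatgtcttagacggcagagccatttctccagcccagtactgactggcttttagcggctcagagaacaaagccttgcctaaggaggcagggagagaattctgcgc
Xrcc6: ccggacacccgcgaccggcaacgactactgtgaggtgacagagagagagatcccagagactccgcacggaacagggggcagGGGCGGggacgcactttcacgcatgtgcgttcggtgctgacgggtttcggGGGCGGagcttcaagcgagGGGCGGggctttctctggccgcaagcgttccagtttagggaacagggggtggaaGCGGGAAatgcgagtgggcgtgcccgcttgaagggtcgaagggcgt
The Atm window holds a GC box whose first base is at -196 and a CCAAT box on the other strand at -165, counted from the start with -1 as the last base shown, and 125 of its bases also lie in the upstream window of Npat. The Xrcc5 window holds a CCAAT box on the other strand at -169. The Xrcc6 window holds GC boxes at -169, -119 and -100 and an E2F core on the other strand at -46. No motif of the 3 is found in both Ku windows. The matches are letters, not binding sites.

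Counts of Atm and Npat did not keep one ratio. Atm counts over Npat counts were 1.83 and 1.77 in mLJZD cultures, against 0.481 and 0.564 in control cultures, and 1.29 and 1.22 in mLJZD tumours, against 1.43 and 1.35 in saline tumours. Npat itself rose in cultures (log2 fold change 0.86, SE 0.10, adjusted p = 4.19e-06) but did not pass in the trend-removed fit (0.20, adjusted p = 0.105), nor in tumours (-0.17, adjusted p = 0.132). Its longest transcript, of 6062 bases, is shorter than that of Atm. Mcm4 fell in tumours (-0.50, SE 0.05, adjusted p = 1.55e-06) and rose in cultures (0.38, SE 0.07, adjusted p = 0.000352). Mcm4 passed in the trend-removed fits as well (-0.50 in tumours; 0.22 in cultures, adjusted p = 0.0135), in which Prkdc passed in neither. Prkdc counts over Mcm4 counts were 0.160 and 0.164 in mLJZD tumours, against 0.145 and 0.136 in saline tumours, and 0.170 and 0.180 in mLJZD cultures, against 0.103 and 0.102 in control cultures. Hscb, whose transcript has 804 bases, fell in cultures (-0.71, adjusted p = 0.00131; 0.002 trend-removed), and did not pass in tumours (-0.03, adjusted p = 0.91). Ankrd49 did not pass in tumours (-0.04, adjusted p = 0.833) or in cultures (0.05, adjusted p = 0.814).

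**Figure D4:**
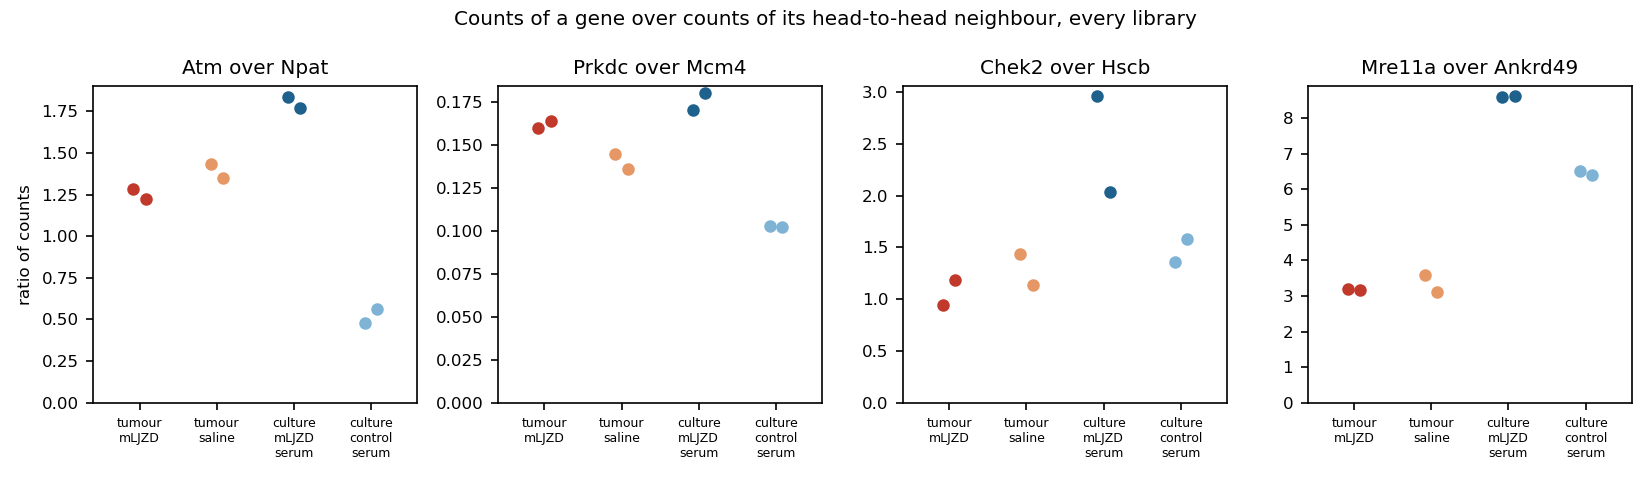
Counts of a gene divided by counts of its head-to-head neighbour (vertical axis, from 0) in the 8 libraries, by group; each point is a library. Atm over Npat is 1.83 and 1.77 in mLJZD cultures and 0.481 and 0.564 in control cultures, and lies above 1.2 in all 4 tumours.

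Atm and Prkdc belong to a family of large kinases related to phosphatidylinositol 3-kinase, whose other members are Atr, the replication stress kinase, Mtor, the growth regulator, Smg1, which acts in nonsense-mediated decay, and Trrap, a pseudokinase scaffold of acetyltransferase complexes. The counts of this gene list and of those that follow stand beside shares over all genes tested. These shares are 16.0% lower and 15.4% higher in tumours, and 28.8% higher and 26.6% lower in cultures. In the trend-removed fit of the cultures they are 20.5% higher and 16.3% lower. Nothing particular to a list is read from the counts. Together with Telo2, Tti1 and Tti2, which stabilise these kinases, 3 of 7 fell in mLJZD tumours and 0 rose: Tti1 (log2 fold change -0.38), Smg1 (-0.29) and Atr (-0.28). By DESeq2 Tti1 and Smg1 passed and Atr did not (adjusted p = 0.128). The median of the 7 was -0.10, against -0.32 for the 10 break signalling genes. Mtor (-0.06) and Trrap (-0.10) did not pass in tumours, nor did Telo2 (0.07) and Tti2 (0.14). In cultures 5 of 7 rose and 0 fell: Smg1 (2.00), Atr (1.54), Trrap (0.97), Mtor (0.86) and Tti1 (0.53). With the trend removed, Smg1 (0.65, adjusted p = 7.9e-06), Atr (0.61, adjusted p = 0.000263) and Tti1 (0.41) remained higher, Telo2 (-0.40) and Tti2 (-0.49) were lower, and Mtor (0.12) and Trrap (-0.07) did not pass. Atm, at 1.56 there, was the highest of the 6 members of the family, and Prkdc, at -0.09, the lowest.

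**Figure D5:**
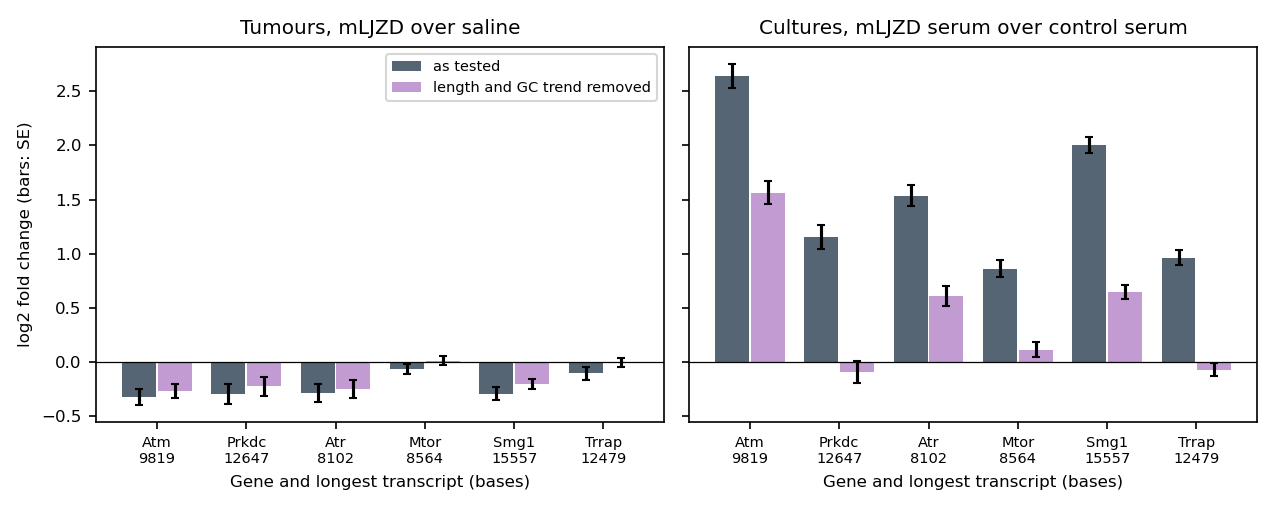
log2 fold change (vertical axis, error bars are SE) of the 6 members of the family of Atm, as tested (dark) and trend-removed (light), in tumours on the left and cultures on the right, with the longest transcript under each name. All 6 are above 0.8 in cultures as tested, and Atm, Atr and Smg1 stay above 0.6 trend-removed.

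Of 9 other end-joining genes, 2 fell in mLJZD tumours and 0 rose: Nhej1, the XLF scaffold (log2 fold change -0.74, adjusted p = 0.00595), and Aplf, a histone chaperone that binds Ku (-0.33, adjusted p = 0.028). The median of the 9 genes was -0.03. By DESeq2 neither Nhej1 (adjusted p = 0.0854) nor Aplf (adjusted p = 0.2) passed. In cultures the nuclease Dclre1c (1.18) and the ligase Lig4 (0.78) rose, and Paxx (-1.03) and Poll (-0.52) were among those that fell. With the trend removed, 0 rose, and Xrcc4 (-0.43) was among those that fell.

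Around the mediators, 5 of 18 genes of chromatin ubiquitin signalling and of 53BP1 effectors fell in mLJZD tumours and 0 rose. These were Brca1 (log2 fold change -0.55, adjusted p = 2.99e-06) and its partner Bard1 (-0.29), the ubiquitin ligase Rnf168 (-0.29), the ligase Herc2 (-0.24), and H2afx (-0.29, adjusted p = 0.000656), which encodes the histone that MDC1 binds when phosphorylated. H2afx had 111 CPM in mLJZD tumours and 139 CPM in saline tumours on average. In cultures 7 rose, led by Herc2 (1.60), Rif1 (1.44) and Brca1 (0.99), and 7 fell, led by H2afx (-0.92) and Mad2l2 (-0.83). After trend removal 5 rose and 4 fell; H2afx (-0.07) and Mad2l2 (-0.19) no longer passed, and Rif1 (0.47), the effector of 53BP1 in restraining resection, remained higher.

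Of 8 genes of ATM activation and the p53 axis, 2 rose in mLJZD tumours and 2 fell. Those that rose were Cdkn1a, the cyclin-dependent kinase inhibitor p21 (log2 fold change 0.59, edgeR adjusted p = 4.38e-07), and Mdm2, the ubiquitin ligase of p53 (0.18, adjusted p = 0.0168). Mdm4 (-0.38) and Trp53 (-0.22) fell. In cultures 4 rose, Mdm4 (0.83), Ccng1 (0.38), Atmin (0.30) and Mdm2 (0.26), and 3 fell, Trp53 (-0.43), Kat5 (-0.30) and Cdkn1a (-0.21). In the trend-removed fit of the cultures Cdkn1a passed in the other direction (0.17, adjusted p = 0.0478), Mdm4 (0.02) no longer passed, and Trp53 (-0.35) remained lower.

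In mLJZD tumours the genes of resection and of alternative end joining that passed were all lower. They were Exo1 (log2 fold change -0.52) and Rpa1 (-0.46) among 7 resection genes, and Polq, the polymerase of theta-mediated joining (-0.45), and Parp1 (-0.35) among 5 genes of alternative end joining. In cultures 4 resection genes rose, among them Blm (0.93) and Dna2 (0.63), and 2 fell, Rpa3 (-0.44) and Rpa2 (-0.24). With the trend removed, Blm (0.53) and Dna2 (0.43) remained higher, Exo1 passed in the other direction (0.35 as tested, adjusted p = 0.0116; -0.51 trend-removed, adjusted p = 0.00107), Rpa1 (-0.34) was lower as well, and Rbbp8, Rpa2 and Rpa3 changed sign and did not pass. Of the alternative end-joining genes Polq (1.39), Lig3 (1.09), Parp1 (0.54) and Fen1 (0.53) rose and Xrcc1 (-0.55) fell. The 4 that rose remained in the trend-removed fit, at 0.82 for Fen1, 0.53 for Lig3, 0.49 for Parp1 and 0.44 for Polq.

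Across the 8 libraries, Ankrd52, Trim25, Mdn1, Huwe1 and Farp2 had the highest Pearson correlation of log2 CPM with Atm among 13412 genes, between 0.997 and 0.999, as a description over 4 groups of 2 libraries. Of the other break signalling genes Trp53bp1 was closest to Atm (0.95), with 512 genes closer, followed by Prkdc (0.921), Mdc1 (0.916), Nbn (0.91) and Rad50 (0.899). Mre11a (0.276), Xrcc5 (-0.047), Chek2 (-0.257) and Xrcc6 (-0.297) had lower values. The control cultures, which had the fewest counts from long transcripts, enter all of these values.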

How the data were processed

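Gene-level RNA was measured in 8 libraries, 2 in each of 4 groups taken from the labels. The values are raw counts, deposited as a single table. The submitters' processing notes name, with no order, featureCounts 2.0.3, HISAT2 2.2.1, SAMtools 1.14, FastQC 0.12.1 and Trim Galore, and the build GRCm39. Which annotation release was counted, with which strand setting and how multi-mapping reads were treated is not given in the sources used here. GENCODE M21, made on an earlier build, supplied symbols for 52029 of 56953 identifiers, the longest transcript with its GC content, and the distances between neighbouring starts; the coordinates printed are those of the RefSeq promoter table.

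Tests ran across the whole table in edgeR 4.0.16 under R 4.3.3: a two-sided quasi-likelihood F test with TMM and filterByExpr, Benjamini-Hochberg adjustment over all genes tested, and a threshold of 0.05. Each fit used the 4 libraries it compares (tumours, cultures, or saline tumours with control cultures), and the interaction used all 8. SE was taken as the absolute log2 fold change over the root of F. With groups of 2, no exact permutation test can pass 0.05. The trend-removed fit took, per library, a robust smooth of log counts in length and GC content (mgcv 1.9.3, basis size 10) as an offset. Alternatives were DESeq2 1.42.0, library totals only, upper-quartile scaling, no filter, a replicate block, all 8 libraries in one fit and leaving out each library. DESeq2 was run with no filter on low counts, so its shares are over more genes. The fits were also run on simulated data with the same spread for all genes and a straight trend in log length, without GC content. Real data differ in these points, and no outcome of the simulation is used as support here. The 10 genes, the lists and the rule for named genes were chosen with earlier results of these data known. The rule names the 10 genes, their head-to-head neighbours, the kinase family list, up to 4 called genes per list and comparison with a mean of at least 1 CPM, and the 5 genes most like Atm. Genes named beyond it complete a count and were chosen after their values were seen. One gene of the end-joining list is not reported here.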

Additional observations from a re-analysis of the deposited data

Results flagged for a closer look

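For 7 of the 10 genes the effect of mLJZD differed between tumours and cultures by edgeR's interaction test over 8 libraries, in which 44.4% of all genes were called. The log2 fold change in tumours minus that in cultures was -2.87 for Atm, -1.37 for Prkdc, -1.33 for Trp53bp1, -1.26 for Rad50, -1.21 for Mdc1, -0.48 for Mre11a and -0.42 for Xrcc5. All of these fell or did not pass in tumours, and all but Xrcc5 rose in cultures. Atm, Rad50, Mdc1 and Xrcc5 kept the call in the trend-removed fit, and Prkdc, Trp53bp1 and Mre11a lost it. The tumours hold host cells and the cultures do not, and the drug was given differently, so the origin of the difference cannot be told apart.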

How the results depend on the processing

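Of the tumour result, DESeq2 called 5 of the 10 genes and 2882 of all genes; leaving out 1 library gave 1 to 8 of the 10 and 1087 to 3536 of all genes, and the cause was not tested. In mLJZD tumours Chek2 had the fewest counts of the 10 genes, 284 and 241; the effect of depth was not tested. In cultures the trend-removed fit called 4 of the 10 genes and 4891 of all genes. The other 87 counts of calls stayed within 1.5 times. The labels do not say if the replicate numbers pair the libraries. Deviations of equal numbers correlated at -0.10 in tumours and 0.02 in cultures, which with 2 libraries per group cannot decide it. With the replicate block 7 of the 10 genes fell in tumours, Chek2 being lost, and 4461 of all genes were called. With crossed numbers, chosen after seeing the data, 8 of the 10 genes fell and 5411 of all genes were called. The replicate block changed no other call of the 10 genes.

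Trend-removed log2 fold changes turned to 0.015 for Mtor in tumours; to -0.092 for Prkdc, -0.10 for Mre11a, 0.020 for Xrcc6, 0.0020 for Hscb, -0.065 for Ankrd49, -0.070 for Trrap, 0.19 for Rpa3, -0.19 for Rbbp8, -0.51 for Exo1, -0.34 for Rpa1, 0.12 for Rpa2, 0.17 for Cdkn1a and 0.051 for Kat5 in cultures; to -0.73 for Prkdc and -0.064 for Npat in saline tumours against control cultures; and to 0.073 for Mre11a and -0.033 for Hscb in the interaction. In cultures upper-quartile scaling, which moved the median of all genes by -0.11, gave -0.11 for Chek2, -0.067 for Ankrd49 and -0.053 for Rpa1, the fit of all 8 libraries -0.074, -0.033 and -0.019, and library totals 0.0052 for Xrcc6. In the interaction Ankrd49 was -0.039 by DESeq2, -0.17 with library totals and -0.12 with no filter. Leaving out 1 library gave -0.27 to 0.18 for Hscb, -0.12 to 0.047 for Ankrd49 and -0.081 to 0.21 for Telo2 in tumours, -0.031 to 0.058 for Chek2 -0.021 to 0.15 for Rpa1 and -0.098 to 0.0087 for Xrcc6 in cultures, and -0.076 to 0.087 for Ankrd49 in the interaction. In saline tumours against control cultures, DESeq2, library totals and no filter moved the median of all genes by 0.30, 0.16 and 0.28, and without saline replicate 2 Nbn did not pass.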
